A study of Mus musculus and synthetic construct with 3 samples.

Results

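The tissue described here lay at the start of lane 2 of a Seq-Scope array, ahead of every other piece of tissue on that lane. Seq-Scope is a spatial RNA method in which a frozen section is laid on a surface of short barcodes with known positions, so that each captured transcript, counted by its unique molecular identifier (UMI), carries a place. The array was divided into hexagons with 12 μm sides, and hexagons with 75 or more detected genes were kept (all gene reads, introns included, without mitochondrial and Gm genes). Kept hexagons were ordered along the lane and a new run was started wherever the gap exceeded 60 μm. The lane-start tissue is the first run of more than 100 hexagons. It held 2863 of the 26527 kept hexagons of lane 2 (10.8%) and of the 36030 kept hexagons of both lanes (7.95%), and 362739 of the 9837644 array positions of the series (3.69%). Its members were thus chosen by position and by their number of detected genes, so the depth of its hexagons is given as a description only.

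The study compared suprarenal abdominal aortas of Apoe -/- male mice, labelled as 16 weeks old and on a normal diet, that received angiotensin II (AngII) or saline by minipump for 4 weeks. All of these mice lacked functional Apoe, the controls included, and 3 aortas with an abdominal aortic aneurysm (AAA) were embedded in pairs with 3 control aortas. One library held the 20 aortic sections of 10 μm, normal and aneurysmal together, and the labels gave no condition for a position on the array and named no tissue other than aorta. The mouse, treatment and organ that the lane-start tissue came from are therefore not given in the sources used here. It is 1 run of hexagons, without replicates, so no test was made of it and the intervals below cover counting error only.

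The wall of the intestine has an inner epithelium folded into crypts, in which goblet cells make mucus, absorptive cells take up water and salts, enteroendocrine cells release hormones, and dividing cells renew the layer. Below it lie connective tissue rich in antibody-secreting plasma cells, then layers of visceral smooth muscle (SMC), with enteric neurons between them. The aortic wall is built of vascular SMC and elastic sheets with an outer coat of fibroblasts and fat. Both kinds of smooth muscle use Acta2 and Tagln, whereas the enteric actin Actg2 and the intermediate filament desmin are known as abundant in visceral muscle.

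The lane-start tissue ran from 0 to 2484 μm along the lane and spanned most of its width of 1515 μm, from 18 to 1512 μm across. The widest gap inside it was 41.6 μm, and the next kept hexagon lay 187 μm beyond its end. Only 4 kept hexagons, each standing alone, separated it from the next run, which began at 3741 μm. Altogether lane 2 had 20 runs of more than 100 hexagons, and the 19 that followed the lane-start tissue, here called the later runs, had 213 to 4029 hexagons each and 23593 in all. The other 22 runs held 71 hexagons and were not used as pieces of tissue.

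Exonic UMIs of the lane-start tissue summed to 480804, against 1491646 in the later runs together and 9970 to 291413 in each. A hexagon of the lane-start tissue had a median of 103 exonic UMIs and 157 detected genes, against 52 and 120 in the later runs. At the threshold of 75 genes, the 152 member hexagons with 75 to 79 genes had a median of 51 UMIs, and the 175 hexagons just outside, with 70 to 74 genes, had a median of 48. Mitochondrial genes took 6.84% of exonic UMIs in the lane-start tissue and 5.86% to 10.9% in the later runs. Of the UMIs over whole genes, the share that was not exonic was 33.4% in the lane-start tissue, below the 55.2% to 70.7% of every later run. It was close to the 36.3% of hexagons far from all these runs.

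**Figure D1:**
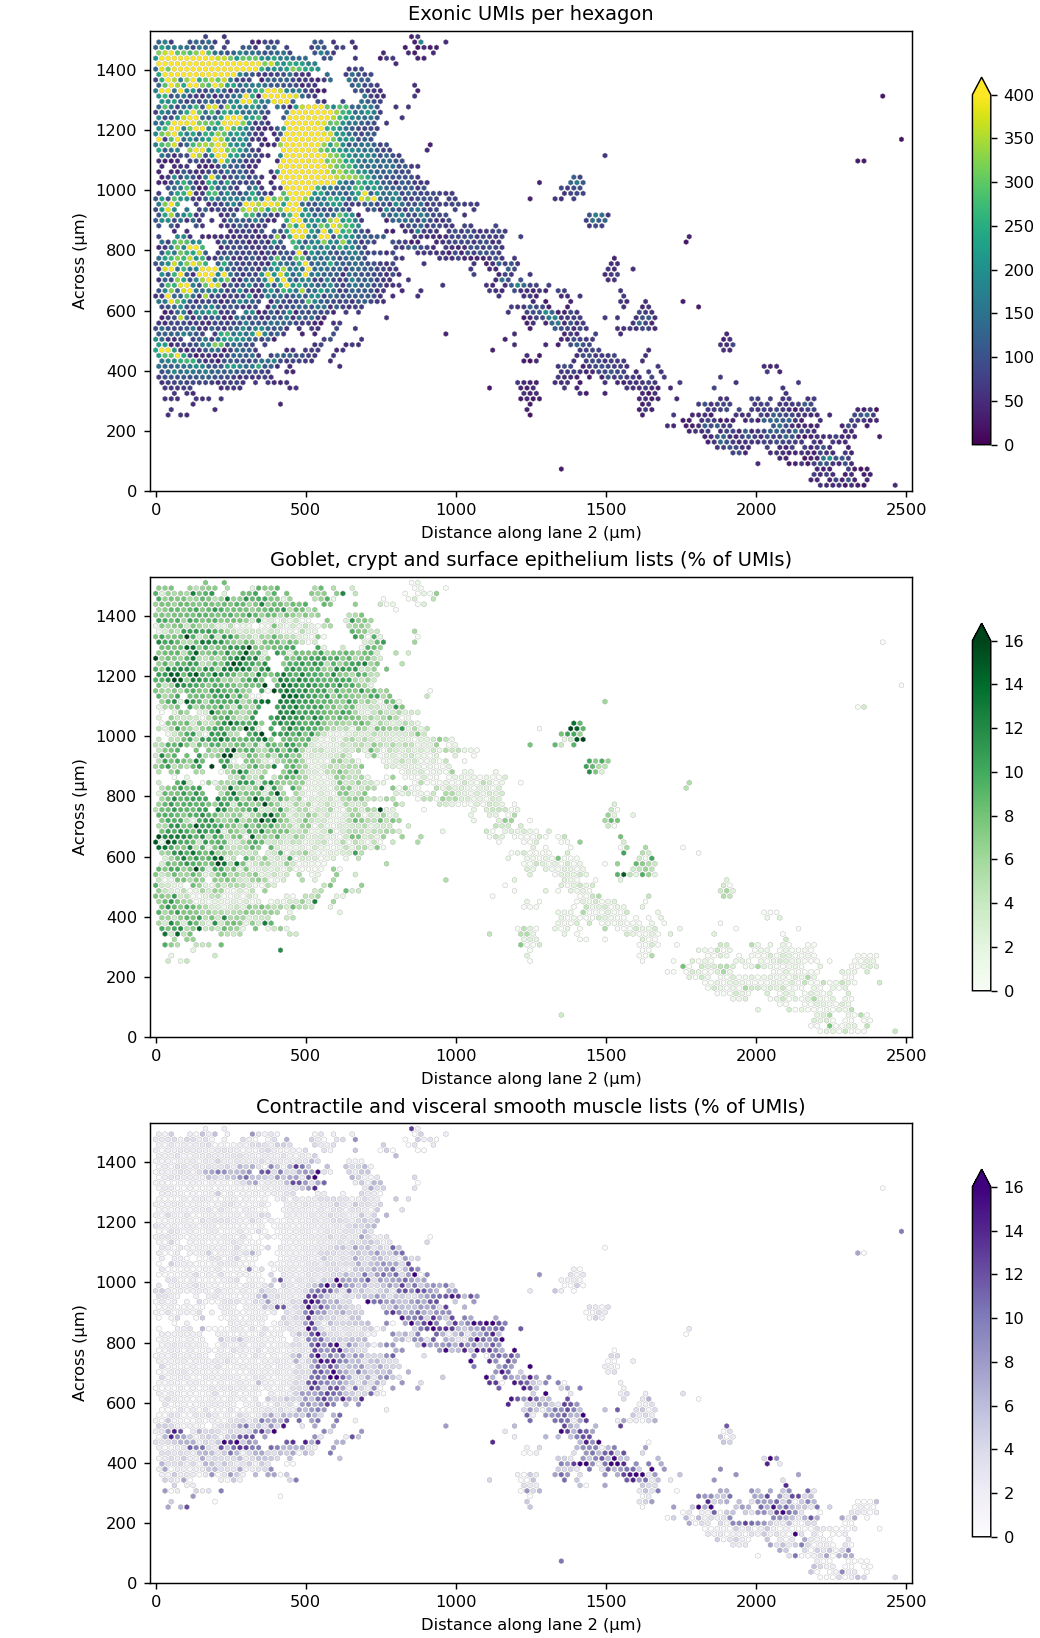
Maps of the lane-start tissue, with each hexagon at its position along and across the lane in μm, colored by its exonic UMIs and by the share of UMIs from the epithelial lists (goblet, crypt and surface) and the smooth muscle lists (contractile and visceral). The body within the first 800 μm has the deepest hexagons and most of the epithelial UMIs, and the contractile genes lie in thin bands in the body and along the narrow strip that follows it.

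Levels are given in CPM, the count of a gene per 1000000 exonic UMIs of all genes other than mitochondrial and Gm genes. The lane-start tissue was set against the later runs by the log2 ratio of their pooled CPM, with 0.5 UMI added to each, for the 7196 genes with 50 or more UMIs between them. A gene is said to be past the fold where the log2 ratio was 1 or more, or −1 or less. Of these genes, 352 (4.89%) were past the fold and higher in the lane-start tissue, and 812 (11.3%) were past the fold and lower. The CPM exceeded that of every later run for 272 genes (3.78%) and lay below every later run for 78 (1.08%). The median log2 ratio of all 7196 genes was −0.13, and the shares below are to be read against these numbers, which are a background and not a test. All gene lists below were chosen with earlier results of these data known, so counts of their genes describe the choice as well as the tissue. In such sums fewer cells of a type and less RNA in each cell cannot be told apart.

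Beside every level stands the fact that transcripts of liver and intestine were also counted far from the runs described. Off-tissue hexagons, here called far from tissue, lay more than 300 μm along the lane from any run of more than 100 kept hexagons. Whether thin tissue lay there was not checked, and smaller runs were not excluded. These 72719 hexagons carried a mean of 5.13 UMIs each. In them albumin (Alb), the main plasma protein made by the liver, stood at 9837 CPM and Mptx1 at 9468 CPM. Alb was at 5824 CPM in the lane-start tissue and at 7921, 9257 and 12974 CPM (lowest, median and highest) in the later runs. A hexagon nevertheless held 0.978 Alb UMIs on average in the lane-start tissue, against 0.334 to 0.687 in the later runs and 0.0505 far from tissue. All 14 hepatocyte genes were measured and none was past the fold, with a median log2 ratio of −0.64. With whole-gene UMIs that median was 0.07. Alb counts barely changed, from 2800 to 2873 UMIs in the lane-start tissue and from 13623 to 14081 in the later runs. The totals behind the ratio changed more, from 480804 to 722318 UMIs in the lane-start tissue and from 1491646 to 3665354 in the later runs. Their summed share was 1.71% of UMIs in the lane-start tissue, 2.42% to 3.47% in the later runs and 2.93% far from tissue. The part that such widespread transcripts have in each result below was not tested, and off-tissue levels are therefore given beside the main genes.

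The 30 genes with the most UMIs in the lane-start tissue took 14.7% of its exonic UMIs. Of these genes 11 encode proteins of the ribosome or bound to it, and the others include the actins Acta2 and Actb, the SMC protein Tagln, the epithelial genes Clca1, Muc2, Reg4, Spink4 and Lgals4, and the liver and matrix genes Alb, Apoe, Mgp and Col3a1.

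The gene with the most UMIs in the lane-start tissue was Mptx1 (mucosal pentraxin 1), a secreted protein of the intestinal epithelium. It had 17463 UMIs, or 36320.4 CPM (95% exact Poisson interval 35784 to 36863), against 5113, 6177 and 7807 CPM as the lowest, median and highest of the later runs. Every later run lay below the lane-start tissue. The log2 ratio was 2.58 (2.54 to 2.62), and Mptx1 alone made up 3.63% of exonic UMIs in the lane-start tissue and 0.608% in the later runs. A hexagon held 6.10 Mptx1 UMIs in the lane-start tissue, against 0.251 to 0.471 in the later runs. Reads of Mptx1 and of its close relative Mptx2 may be hard to tell apart in this kind of counting, and the same holds for Clca1 and Clca3b, for the gasdermins C, for antibody genes and for the actins Actg2 and Acta2.

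Goblet cell genes were higher as a group. All 8 of the listed genes were measured, all 8 were past the fold and higher in the lane-start tissue, and all 8 exceeded every later run, with a median log2 ratio of 2.55. Together they took 1.59% of exonic UMIs (1.56 to 1.63), against 0.205% to 0.325% in the later runs and 0.431% far from tissue. Muc2, the gel-forming mucin of the intestine, stood at 3417 CPM in the lane-start tissue, against 394, 588 and 807 CPM in the later runs (lowest, median and highest) and 833 CPM far from tissue. The protease-like Clca1, which processes mucus, stood at 4863 CPM, against 543, 717 and 1247 CPM in the later runs, a log2 ratio of 2.74 (2.64 to 2.85). Spink4, a small secreted protease inhibitor of goblet cells, reached 3190.5 CPM, against 254, 487 and 683 CPM. Far from tissue Clca1 stood at 1334 CPM and Spink4 at 857 CPM, each above its highest later run. In each of these genes the lane-start tissue was apart from the later runs, with no overlap.

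The remaining goblet cell genes had fewer UMIs and similar ratios. Fcgbp, a protein that binds mucins, was at 1394 CPM with a log2 ratio of 2.15. Agr2, which folds mucins in the endoplasmic reticulum, was at 1381 CPM with a log2 ratio of 2.54. The lectin Zg16 was at 1202 CPM, with a log2 ratio of 1.98, and the trefoil peptide Tff3, which helps repair the surface, was at 227 CPM, with the smallest log2 ratio of the 8 at 1.63. Retnlb, a secreted antibacterial protein known from goblet cells of the large intestine, reached 270.4 CPM, against 26.8 CPM far from tissue, a log2 ratio of 2.72 over the later runs.

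Mptx1 and Muc2 are shown by their promoters because they were the epithelial gene with the most UMIs and the best known goblet cell gene of the tissue. The sequences are from RefSeq on GRCm38.p6 and cover 250 bases before and 50 bases after the start, and the capitals mark the letters TTTAT or their reverse complement ATAAA, the core of the motif of the intestinal Cdx factors, which overlaps the motif of posterior Hox factors.
Mptx1, chr1:174330268-174330567, plus strand: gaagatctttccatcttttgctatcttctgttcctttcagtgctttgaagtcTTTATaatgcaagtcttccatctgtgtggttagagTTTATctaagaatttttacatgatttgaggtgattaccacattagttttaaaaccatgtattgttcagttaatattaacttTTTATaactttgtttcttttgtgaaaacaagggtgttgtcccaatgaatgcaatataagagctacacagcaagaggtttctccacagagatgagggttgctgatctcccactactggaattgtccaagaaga
Muc2, chr7:141690090-141690389, plus strand: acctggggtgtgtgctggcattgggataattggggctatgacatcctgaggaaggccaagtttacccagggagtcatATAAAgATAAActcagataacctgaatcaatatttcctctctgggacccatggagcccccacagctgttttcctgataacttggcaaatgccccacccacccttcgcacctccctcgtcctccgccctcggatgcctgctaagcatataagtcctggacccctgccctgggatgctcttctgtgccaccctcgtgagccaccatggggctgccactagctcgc
The Mptx1 window holds the core at 198, 163 and 82 bases before the start, and the Muc2 window at 173 and 167 bases before it. Among 32851 promoters of 300 bases, 40.01% held the core at least once on either strand, 16.3% held 2 or more and 6.89% held 3 or more. Of the 30 genes of the goblet cell and the crypt and surface lists, 18 had a promoter in the table, and 10 of these 18 (55.6%) held the core. A match describes the letters in the window and says nothing of binding.

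Genes of crypts and of the surface took a larger share still. This list of 22 genes was drawn up after the levels had been seen, so its counts describe the choice as much as the tissue. All 22 were measured, 19 were past the fold and higher, none was lower, and 20 exceeded every later run, with a median log2 ratio of 2.39. They summed to 5.57% of exonic UMIs in the lane-start tissue (5.50 to 5.63), against 0.884% to 1.24% in the later runs and 1.61% far from tissue. Mptx1 is one of the 22 and carried most of that share. Without it the other 21 summed to 1.93%, against 0.370% to 0.542% in the later runs and 0.664% far from tissue. Reg4, a lectin made by secretory cells of the deep crypt in the mouse colon, stood at 3274 CPM. It was at 335, 550 and 976 CPM in the later runs and at 988 CPM far from tissue. The anchored protein Lypd8, which keeps flagellated bacteria off the epithelium of the colon, stood at 2419 CPM, against 268, 468 and 871 CPM. Lgals4 (galectin-4), a lectin of the brush border, stood at 2920.1 CPM, against 533, 725 and 1404 CPM. These genes, too, left a gap between the lane-start tissue and the highest later run.

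Other members of the same list followed. Gpx2, the glutathione peroxidase of the gut epithelium, was at 2086 CPM with a log2 ratio of 1.89. The transmembrane mucin Muc3 was at 994 CPM, with a log2 ratio of 2.54, and Oit1, which encodes a secreted protein, was at 1073 CPM, with 2.43. Gsdmc4, a gasdermin, was at 1000.4 CPM, with a log2 ratio of 2.39, and Tspan1, a tetraspanin, was at 799 CPM, with 2.65.

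General epithelial genes agreed in direction. Of 8 listed, 7 were measured, all 7 were past the fold and higher, and all 7 exceeded every later run, with a median log2 ratio of 1.85. The cell adhesion molecule Epcam stood at 1156 CPM, against 94.1, 230 and 475 CPM in the later runs (lowest, median and highest). The keratin Krt19 had a log2 ratio of 2.40, E-cadherin (Cdh1) had 2.02, and the tight junction proteins Cldn3 and Cldn7 had 1.85 and 1.65. The eighth gene, Cldn4, had 2 UMIs in the lane-start tissue.

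The parts of the intestine are told apart by some of these genes. The list for colon epithelium had 7 of 9 genes measured, 4 of them past the fold and higher: Guca2a, which encodes guanylin (log2 ratio 2.27), the water channel Aqp4 (2.05), the chloride and bicarbonate exchanger Slc26a3 (1.42) and the carbonic anhydrase Car4 (1.38). Their levels were low, with 36 to 51 UMIs each, and only Guca2a exceeded every later run. At such levels the highest later run can rest on few UMIs, as later runs had as few as 9970 UMIs in all. Krt20, a keratin of mature surface cells, had a log2 ratio of 0.45, the water channel Aqp8 had −0.11, and Car1 had 13 UMIs in all in the lane-start tissue. In the list for small intestine, 12 of 13 genes were measured, 1 was past the fold and higher (the brush border protein Vil1, 1.58) and 1 past the fold and lower (the sucrase-isomaltase Sis, −1.24, with 6 UMIs). Fabp1, the fatty acid binding protein shared by small intestine and liver, was at 252 CPM in the lane-start tissue, against 238, 408 and 705 CPM in the later runs. Of the 8 genes on the Paneth cell list 4 were measured, 1 was past the fold and higher, and 2 exceeded every later run. Ang4, an antimicrobial ribonuclease, was past the fold at 936 CPM and 2.78, and was −0.13 beyond the midpoint at 1242 μm. The lectin Itln1 stood at 79.03 CPM and 0.96, and the α-defensins Defa17 and Defa24 had log2 ratios of 0.39 and −0.49. Lyz1, the lysozyme of Paneth cells, had 3 UMIs and Defa22 had none. With 3 UMIs taken as the limit behind it, a count of 0 allows a level of up to 6.24 CPM at this depth.

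Factors that mark position along the gut were looked up after the other levels had been seen. Both that are described here were past the fold and higher. Cdx1, a homeobox gene of the intestinal epithelium, had 83 UMIs (173 CPM), against 0, 36.9 and 159 CPM in the later runs (lowest, median and highest). Hoxb13, the most posterior member of its cluster and known from the hindgut and tail, had 90 UMIs (187 CPM), against 0, 29.9 and 201 CPM, so that 1 later run lay above the lane-start tissue. For genes of such low count the lowest and highest later runs rest on few UMIs, as later runs had as few as 9970 UMIs in all. Far from tissue Cdx1 and Hoxb13 each stood at 24.1 CPM. Of the factors of the upper gut, Gata4 had 5 UMIs, Pdx1 and Sox2 had 1 each and Barx1 had none.

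Among hormones of the gut epithelium, also chosen after the levels had been seen, 2 of 10 were measured and both were past the fold. Pyy (peptide YY), released by enteroendocrine cells of the lower gut, had 89 UMIs in the lane-start tissue and 37 in the later runs together, a log2 ratio of 2.89 (2.33 to 3.49). Insl5, a relaxin-like peptide of enteroendocrine cells of the large intestine, had 122 UMIs in the lane-start tissue and 64 in the later runs, a log2 ratio of 2.56 (2.12 to 3.02). Both were higher than in each later run.

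**Figure D2:**
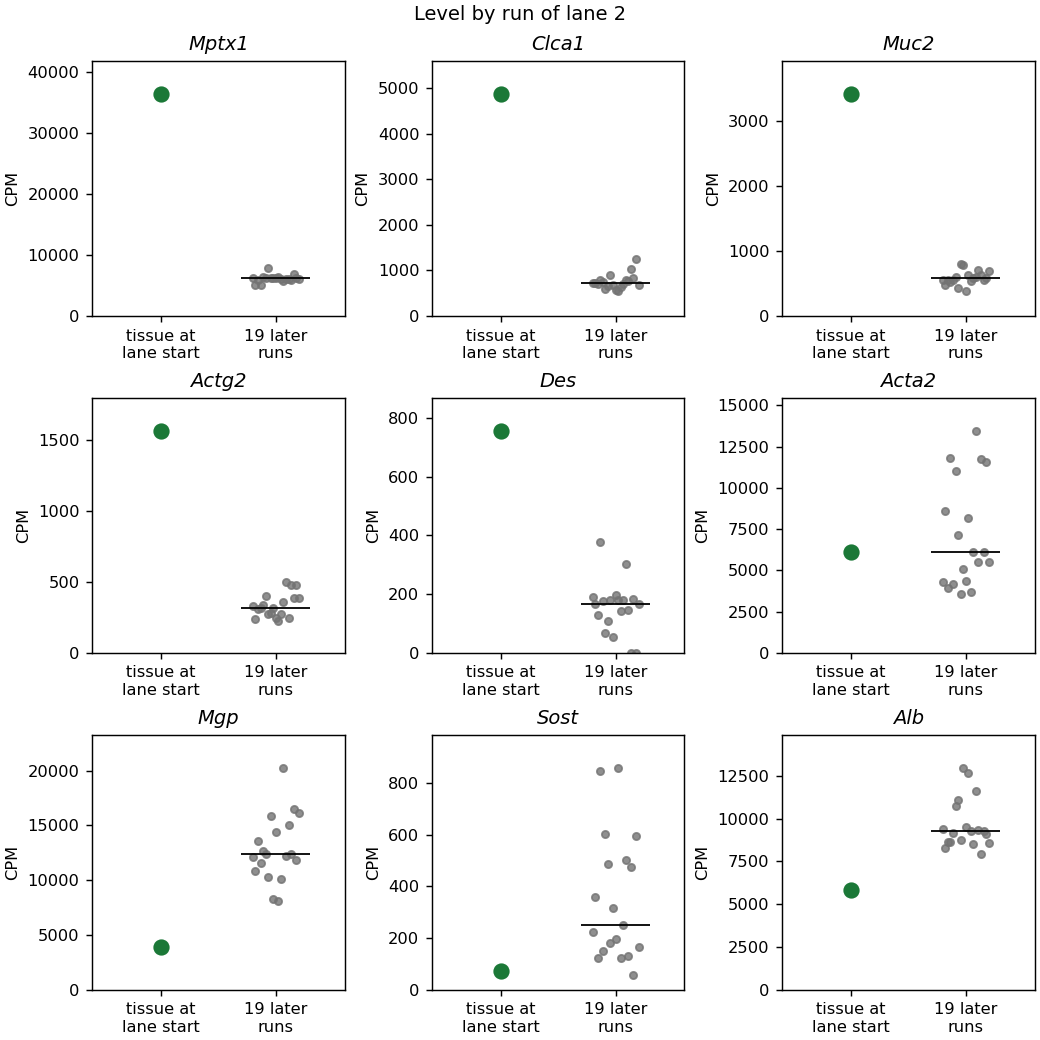
Levels of 9 genes in CPM on linear axes, with the lane-start tissue as the green point on the left and each of the 19 later runs as a grey point on the right, where the line is their median. Muc2 and Actg2 stand above all later runs in the lane-start tissue (3417 and 1562 CPM), Acta2 lies within their range (6127 CPM), and Mgp lies below them all (3929 CPM).

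By rule, the 15 genes with the largest ratios in each direction were examined. The 15 highest had log2 ratios of 2.65 to 3.27 and at least 34 UMIs each in the lane-start tissue, and 14 of them exceeded every later run, the exception being Slc44a4. Most are known from epithelium, such as Clca3b, a relative of Clca1 (274.5 CPM, log2 ratio 3.27), the gasdermin Gsdmc2 (106 CPM, 3.11), Hsd11b2, which inactivates glucocorticoids in the colon and kidney (173 CPM, 2.99), and the oxidase Nox1 of the colon epithelium (70.7 CPM). The antibody light chain gene Iglc3 (805 CPM, 2.79) was among them. The 15 lowest had log2 ratios of −3.41 to −2.40 but only 1 to 4 UMIs each in the lane-start tissue, and 48 to 105 in the later runs. The lowest later run was at 0 CPM for each of these 15, so none of them could lie below every later run. Among them were the secreted matrix protein Ccn1 (−2.94) and the pheromone receptor gene Vmn2r20 (−3.41).

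Visceral smooth muscle genes formed the next group. Of its list of 13 genes, 7 were measured, 6 were past the fold and higher, none was lower, and 4 exceeded every later run, with a median log2 ratio of 1.62. They took 0.393% of exonic UMIs (0.375 to 0.411), against 0.0871% to 0.191% in the later runs and 0.168% far from tissue. The enteric actin Actg2 had 751 UMIs, or 1562 CPM (1452 to 1678), in the lane-start tissue, against 226, 318 and 502 CPM in the later runs (lowest, median and highest) and 490 CPM far from tissue. The lowest bound for the lane-start tissue was above the highest later run. Its log2 ratio was 2.28 (2.12 to 2.45). Desmin (Des), the muscle intermediate filament protein, was at 755 CPM, against 0, 167 and 376 CPM, a log2 ratio of 2.19. Its partner synemin (Synm) was at 299.5 CPM, against 0, 81.1 and 201 CPM, a log2 ratio of 1.62.

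The less abundant genes of this list had wider intervals. Chrm2, the muscarinic receptor through which nerves drive gut muscle, had 32 UMIs in the lane-start tissue and 18 in the later runs, a log2 ratio of 2.45 (1.59 to 3.38). Foxf1, a transcription factor of gut mesenchyme, had 30 UMIs in the lane-start tissue and 32 in the later runs, a log2 ratio of 1.54 (0.77 to 2.31). The adhesion protein Pgm5 had a log2 ratio of 1.23, and the creatine kinase Ckb had 0.68 and was not past the fold. Of those under the minimum, Hand2 had 19 UMIs, Pcp4 had 16 and Nkx2-3 had 8 in the lane-start tissue, and Hand1 had none.

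Genes shared by all smooth muscle were closer to the later runs. All 16 contractile genes were measured, and 4 were past the fold and higher: Tagln (1.11), the calponin Cnn1 (1.52), the tropomyosin Tpm1 (1.33) and the actin-binding Synpo2 (1.06). The 16 genes together took 2.69% of UMIs (2.65 to 2.74), which lay inside the 1.41% to 3.79% of the later runs. Smooth muscle α-actin (Acta2) stood at 6127 CPM in the lane-start tissue, against 3573, 6128 and 13440.3 CPM in the later runs, so that 9 of the 19 lay below it. Myh11, the smooth muscle myosin, was at 248 CPM, against 49.3, 180 and 870.3 CPM. Acta2 and Myh11 thus lay inside the range of the later runs, whereas Tagln exceeded 18 of the 19 and Tpm1 exceeded all 19.

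The ratio between the actins lay outside the range of the later runs. For every 100 Acta2 UMIs there were 25.5 Actg2 UMIs in the lane-start tissue, against 2.65, 5.68 and 8.14 in the later runs (lowest, median and highest). It was 24.8 in the first 800 μm of the tissue and 27.7 beyond.

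Vascular genes were lower. Of 10 listed, 9 were measured, 6 were past the fold and lower, none was higher, and 4 lay below every later run, with a median log2 ratio of −1.62. The integrin Itga8 was at 20.8 CPM in the lane-start tissue, against 48.1, 99.9 and 475 CPM in the later runs, a log2 ratio of −2.19. Ptgis, the prostacyclin synthase of the vessel wall, was at 208 CPM, against 480, 659 and 1540 CPM, a log2 ratio of −1.70. Sost (sclerostin), a Wnt inhibitor found in aortic SMC, was at 70.7 CPM, against 55.4, 250.4 and 860 CPM, a log2 ratio of −1.62. Mfge8, a milk fat globule protein abundant in the aortic media, had a log2 ratio of −1.32. Rgs5, a gene of pericytes and arterial SMC, was not past the fold at −0.26.

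**Figure D3:**
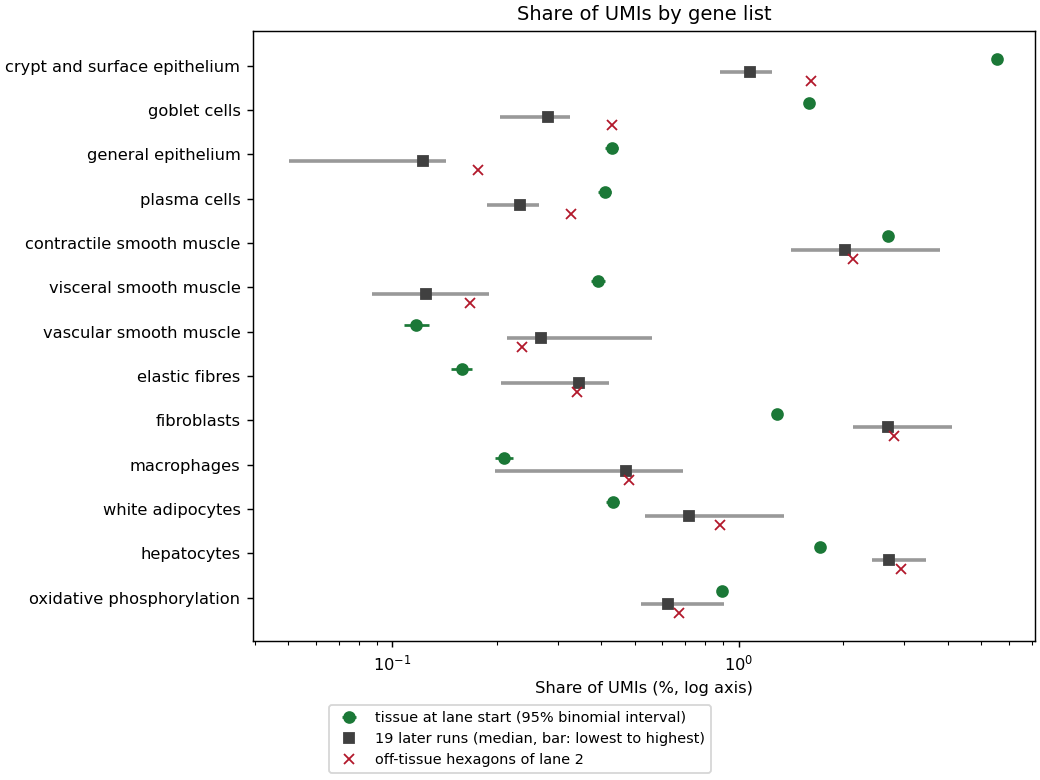
Share of exonic UMIs, in percent on a log axis, taken by each gene list in the lane-start tissue, with its 95% binomial interval (green), in the later runs (square for the median, bar from the lowest to the highest of 19) and in off-tissue hexagons of lane 2 (red cross). Goblet cell genes (1.59%) and visceral smooth muscle genes (0.393%) lie above every later run, contractile genes (2.69%) lie among them, and fibroblast genes (1.29%) lie below them all.

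Fibroblast genes were lower as well. Among 12 fibroblast genes, all measured, 8 were past the fold and lower and none was higher, with a median log2 ratio of −1.13, and the summed share was 1.29% against 2.13% to 4.11% in the later runs. Mgp (matrix Gla protein), an inhibitor of calcification made in the arterial wall, was at 3929 CPM, against 8106, 12356 and 20259.9 CPM in the later runs, a log2 ratio of −1.80 (−1.87 to −1.74). Other connective tissue genes were mixed. A list of 11 genes for connective tissue of the gut wall, drawn up after the levels had been seen, had 8 measured, 3 past the fold and lower and 1 higher, the metalloprotease Adamdec1 (2.30). Its median log2 ratio was −0.34, and 0.08 with whole-gene UMIs. Of 8 basement membrane genes, all measured, 2 were past the fold and lower and none was higher, with a median of −0.57, and of 0.07 beyond the midpoint at 1242 μm.

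Elastic fibre genes showed the same direction, with 6 of 8 past the fold and lower and none higher. Elastin (Eln) was at 522 CPM in the lane-start tissue, against 757, 1188 and 1624 CPM in the later runs (lowest, median and highest). The cross-linking enzyme Lox had a log2 ratio of −1.34, and Fbln5, which tethers elastin to cells, had −2.01. Far from tissue Mgp and Eln stood at 11720.2 and 1363 CPM, nearer to the later runs than to the lane-start tissue.

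Immune cells differed by kind. Of 12 macrophage genes, all measured, 10 were past the fold and lower and none was higher, with a median log2 ratio of −1.27 and a summed share of 0.210% (0.197 to 0.223), against 0.198% to 0.691% in the later runs. Lysozyme 2 (Lyz2), an abundant macrophage enzyme, was at 270.4 CPM, against 119, 756 and 1166 CPM, and Gpnmb, a glycoprotein of lipid-laden macrophages, was at 245 CPM, against 79.2, 621 and 1349 CPM. For both genes the lane-start tissue lay within the range of the later runs, near its low end. Plasma cell genes were higher in sum, with 3 of 5 above every later run and 1 past the fold. Their log2 ratios ran from −0.46 to 1.26, with a median of 0.82, and of 0.31 against off-tissue hexagons. The summed share was 0.410% (0.392 to 0.428), against 0.187% to 0.265% in the later runs and 0.327% far from tissue. The J chain gene (Jchain), which joins secreted IgA, was at 595 CPM, against 0, 233 and 402 CPM, a log2 ratio of 1.26. The IgA heavy chain gene Igha was at 1726 CPM, against 765, 960 and 1536 CPM, a log2 ratio of 0.82, and the IgM heavy chain gene Ighm had −0.73.

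Fat, nerve and cycling cell genes differed in direction. White adipocyte genes were lower, with 7 of 9 past the fold, and the adipsin gene Cfd was at 1493 CPM, against 1607, 2750.5 and 6161 CPM in the later runs. Of 18 neuron genes, 3 were measured, and Prph (peripherin), a filament of peripheral neurons, was past the fold with 35 UMIs in the lane-start tissue and 31 in the later runs. The enteric peptide gene Vip had 23 UMIs in the lane-start tissue and 16 in the later runs, under the minimum, and Chat had none in the lane-start tissue. Of 4 genes listed for interstitial cells of Cajal, the pacemaker cells of the gut, 3 were measured, with a median log2 ratio of −0.69. Their receptor Kit was past the fold and higher with 37 UMIs (1.29), their chloride channel Ano1 was not past it (−0.69), and the transcription factor Etv1 was past it and lower (−1.04), and at 0.034 beyond the midpoint at 1242 μm. Of 4 stem cell genes 1 was measured, Smoc2, with 43 UMIs and a log2 ratio of −0.97, not past the fold. Under the minimum, Lgr5, Ascl2 and Olfm4 had 9, 5 and 2 UMIs in the lane-start tissue and 29, 1 and 13 in the later runs. Of a cell cycle list chosen after the levels had been seen, 11 of 15 genes were measured and 6 were past the fold and higher, among them the proliferation marker Mki67 (160.1 CPM, against 0, 41.2 and 111 CPM) and the mitotic gene Ube2c (log2 ratio 1.96).

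Genes of energy metabolism and of the ribosome had small log2 ratios. All 11 oxidative phosphorylation genes were measured, none was past the fold, and 4 exceeded every later run, with log2 ratios of −0.36 to 0.91 and a median of 0.48. Their summed share was 0.894% in the lane-start tissue, inside the 0.523% to 0.905% of the later runs. Of 79 measured ribosomal protein genes 1 was past the fold, 45 exceeded every later run, and the median log2 ratio was 0.50, and was −0.02 beyond its midpoint at 1242 μm. They held 11.4% of exonic UMIs in the lane-start tissue, against 6.44% to 8.22% in the later runs.

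Genes of the stomach, the male reproductive tract, lung epithelium, kidney and the adrenal cortex were at or near 0. Of 12 stomach genes, 11 had no UMI in the lane-start tissue, as had all 10 genes of the male reproductive tract, 5 of 6 of lung epithelium, 5 of 10 of kidney and 5 of 8 of the adrenal cortex, and none of these lists had a gene with enough UMIs to be measured. Of 13 pancreatic acinar genes, 3 were measured and 2 were past the fold, the elastase Cela1 (210.1 CPM) and the colipase Clps (58.2 CPM), but both were higher far from tissue, at 262 and 83.03 CPM, so that this direction turned with the reference used. Other epithelial lists had members past the fold. Of 6 urothelium genes 2 were measured and both were higher, the keratin Krt7 at 1.79, which was −1.32 beyond the midpoint at 1242 μm, and Gsdmc2 at 3.11. Of 12 squamous epithelium genes 2 were measured and both were higher, the desmosomal plaque protein Dsp (1.20) and Perp (1.22), each above 18 of the 19 later runs. Of 8 genes of the female reproductive tract 2 were measured. Wfdc2 had 247 UMIs, or 514 CPM, and exceeded every later run with a log2 ratio of 1.89, and Esr1, an estrogen receptor, was lower at −1.83 from 4 UMIs, and 0.32 beyond the midpoint.

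The aneurysm study used Apoe -/- males, and the tissue carried transcripts of Apoe and of the Y chromosome. Apoe, the apolipoprotein disrupted in these mice, was at 3771 CPM in the lane-start tissue, against 4515, 5363 and 6461 CPM in the later runs and 6562 CPM far from tissue. Whether the counted reads lie in the disrupted part of the gene is not given by the counts, so they check nothing about the genotype. Of the Y-linked genes, Ddx3y had 50 UMIs, Uty 12, Eif2s3y 7 and Kdm5d 4, and Xist, the RNA of the inactive X chromosome, had 11 UMIs (22.9 CPM, against 0, 21.8 and 73.9 CPM). Of these 6 genes, Apoe included, 3 were measured and none was past the fold, with log2 ratios of −0.49 to −0.30.

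Levels were also compared within classes of depth. Hexagons of the later runs were sorted into the 4 depth classes of the lane-start hexagons. Median depths by class were 52, 82, 136 and 327.5 UMIs in the lane-start tissue, against 43, 79, 126 and 233 UMIs in the later runs, of which only 358 hexagons fell in the deepest class, so depth was not fully matched. Mptx1 was at 16307, 20704, 27023 and 45359 CPM in the lane-start tissue from the shallowest to the deepest class, against 6628, 5804, 5611 and 4820 CPM in the later runs. Actg2 was at 2191, 2441, 2610.3 and 932 CPM in the lane-start tissue, against 366, 287, 283 and 257 CPM. The deepest class was thus the richest in Mptx1 and the poorest in Actg2, and in each class the lane-start tissue was higher for both genes. With each hexagon thinned to 40 UMIs, which left out 126 lane-start hexagons and 6449 later ones, Mptx1 was found in 56.1% (54.2 to 58.0) of 2737 lane-start hexagons and in 22.3% of 17144 later ones, and without thinning in 73.2% and 30.8%. Actg2 was found in 7.53% (6.57 to 8.58) of thinned lane-start hexagons and 1.28% of later ones, Acta2 in 25.4% and 18.9%, and Mgp in 15.7% and 38.1%. Alb, a transcript of liver cells, was found in 22.9% of thinned lane-start hexagons and in 30.6% of later ones.

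Within the tissue, a broad body gave way to a narrow strip. The first 800 μm, a limit chosen after seeing the map, held 2034 hexagons and 423069 UMIs, with a median of 139 UMIs per hexagon, and the strip beyond held 829 hexagons and 57735 UMIs, with a median of 64. In the strip Actg2 was at 3291 CPM, against 1326 CPM in the body, and Des was at 2026 CPM, against 581 CPM. In contrast, Mptx1 was at 8522 CPM in the strip, against 40114 CPM in the body, and the goblet cell share was 0.521% against 1.74%. Contractile genes took 5.57% of UMIs in the strip and 2.30% in the body. The strip thus held the muscle genes at a higher level and the epithelial genes at a lower one, while its Alb level was 7534 CPM, against 5590.1 CPM in the body.

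**Figure D4:**
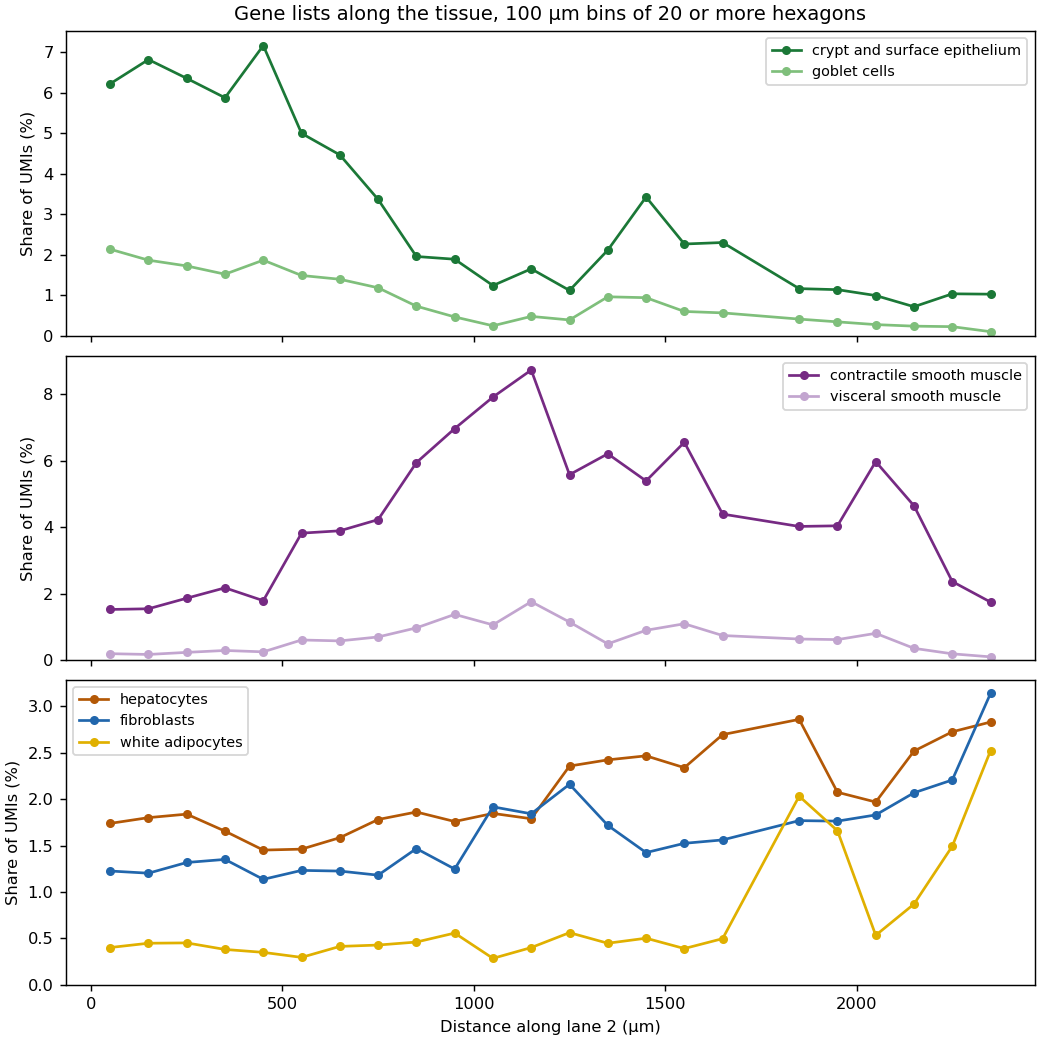
Share of exonic UMIs in percent taken by gene lists in bins of 100 μm along the lane, for bins with 20 or more hexagons of the lane-start tissue. Crypt and surface genes, Mptx1 included, peak at 7.17% at 400 to 500 μm and again at 3.43% at 1400 to 1500 μm, contractile genes peak at 8.73% at 1100 to 1200 μm, and white adipocyte genes reach 2.52% in the last bin, at 2300 to 2400 μm.

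Along the lane the lists changed place. The crypt and surface share was 5.88% to 7.17% in the first 500 μm, dropped to 1.12% at 1200 to 1300 μm, and came back to 3.43% at 1400 to 1500 μm, where small patches lay beside the strip. Without Mptx1 the share was 1.89% to 2.57% in the first 500 μm, 0.421% at 1200 to 1300 μm and 2.31% at 1400 to 1500 μm. In that later bin Lypd8 was at 9224 CPM, from 46 UMIs, against 2506 CPM in the body. The contractile share was 1.53% in the first 100 μm and 8.73% at 1100 to 1200 μm. Cfd, the adipocyte gene, was at 12792 CPM at 1800 to 1900 μm and 15440.0 CPM at 2300 to 2400 μm, from 34 and 30 UMIs, in hexagons at the far end of the strip. Vip, a peptide of enteric neurons, had 15 UMIs in the strip and 8 in the body. For the tissue as a whole Cfd was below every later run, and beyond its midpoint the log2 ratio was 0.16.

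**Figure D5:**
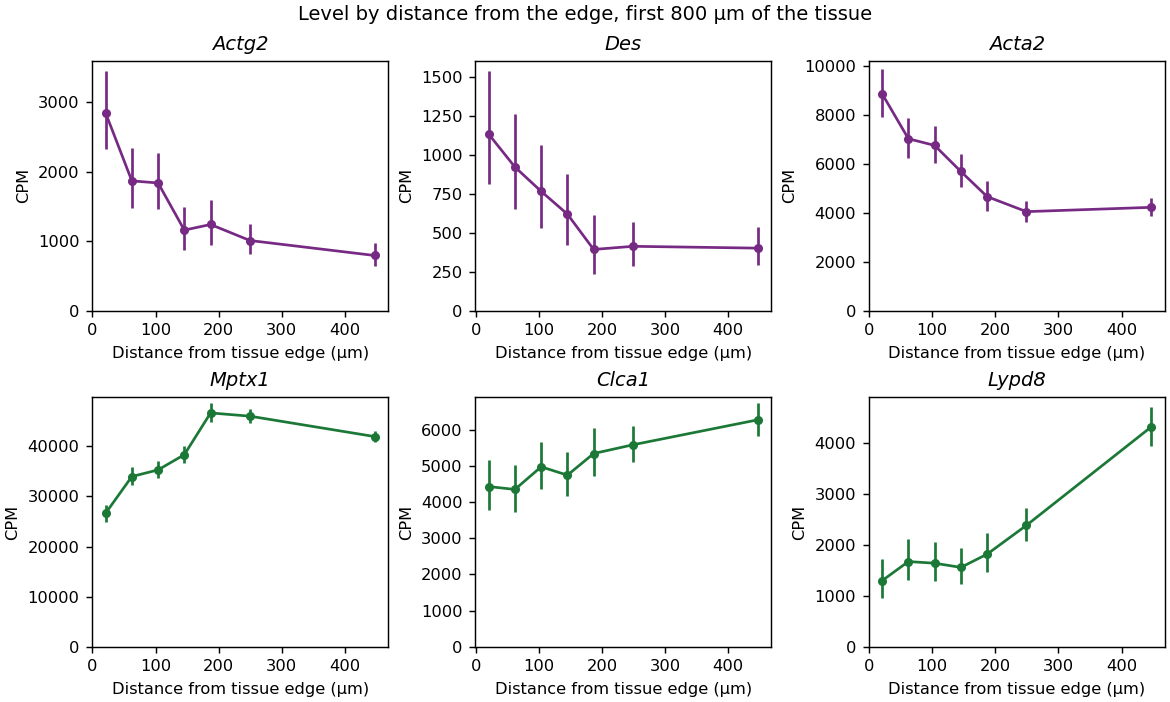
Levels in CPM by distance from the tissue edge in μm, for hexagons in the first 800 μm grouped by distance, with points at the middle of each group and bars for 95% exact Poisson intervals. The start of the array, at 0 μm along the lane, is not counted as an edge. Actg2 is at 2848 CPM nearest the edge and 794 CPM deepest inside, and Lypd8 is at 1300 and 4321 CPM.

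Distance from the edge sorted the same genes inside the body. Within 41.6 μm of the edge Actg2 was at 2848 CPM, and beyond 291 μm it was at 794 CPM. Desmin was at 1134 CPM near the edge and 402 CPM deepest inside, and Acta2 at 8848 and 4216 CPM. Mptx1 was lowest at the edge (26656 CPM), highest between 166 and 208 μm (46685 CPM) and at 41969 CPM deepest inside. Lypd8 and Zg16, which are known from the surface facing the gut lumen, were highest deepest inside, at 4321 and 2453 CPM, against 1300 and 691 CPM at the edge. Clca1 had a flatter course, with 4424 CPM at the edge and 6267 CPM deepest inside. Muscle genes were thus highest near the edge and Lypd8 and Zg16 deepest inside, while Mptx1 differed little over the inner groups (46041 CPM between 208 and 291 μm). The start of the array, at 0 μm along the lane, was not counted as an edge, and the deepest group reached it. Lypd8 also fell along the lane, from 3731 CPM in the first 100 μm to 1629 CPM at 300 to 400 μm. Distance from the edge and place along the lane were not separated. Alb ranged only from 4879 to 6000 CPM over these distances.

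Hexagons were also grouped by their transcripts alone, without their positions, into 6 clusters, which are regions and may mix several cell types. The genes that define them are given as a description. The region led by Rab25, Gucy2c and Mptx1, which are a vesicle GTPase of epithelia, the guanylin receptor and mucosal pentraxin, had 1005 hexagons (35.1%) and Mptx1 at 48501 CPM. The region led by Actg2, Tagln and Cnn1 had 875 hexagons (30.6%), with 6.58% contractile UMIs and Actg2 at 4725 CPM, and 45.9% of it lay in the strip. In each of these regions most neighbouring hexagons were of the same region, at 62.4% and 63.1%. Their median distance from the edge was 208 μm for the Mptx1 region and 41.6 μm for the Actg2 region.

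Smaller regions were less compact. A region of 427 hexagons (14.9%) had a median of 59 UMIs and 34.1% of neighbours alike, and 64.4% of it lay in the strip. Its largest ratios of summed UMIs were for Cfd and Hba-a2, a hemoglobin gene, but most of its hexagons held neither. Cfd was found in 19.9% of them, against 20.2% of the other hexagons, and Hba-a2 in 10.3% against 12.7%, so these genes do not mark the region. The region led by Lypd8 and Zg16 had 251 hexagons (8.77%), lay at a median of 270.2 μm from the edge, and had Lypd8 at 9496 CPM. The last regions, with 202 and 103 hexagons, were led by Rpl17 and by Acta2 with log2 differences of 0.46 and 1.17, had 12.3% and 4.02% of neighbours alike, and are not described further.

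Many hexagons held transcripts of both the goblet cell and the contractile list. With 2 or more UMIs as the limit, 1156 hexagons (40.4%) held goblet cell genes, 2020 (70.6%) held contractile genes, and 898 held both. Contractile genes were thus in 77.7% of the goblet hexagons, near the 70.6% of all hexagons. Goblet cell genes were in 44.5% of the contractile hexagons, near the 40.4% of all. The contractile list also took 2.14% of UMIs far from tissue, in hexagons with a mean of 5.13 UMIs. Whether contractile UMIs place a hexagon in the muscle was not tested. Hexagons with both were deep, with a median of 256.5 UMIs, against 121.5 for goblet genes only and 82 for contractile genes only. Those with goblet genes only lay at a median of 291 μm from the edge, and those with contractile genes only at 41.6 μm.

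Across the 20 runs of lane 2, Actg2 was most alike to Lgals4 (Pearson r of log2 CPM 0.905), Clca1 (0.893), Fcgbp (0.825), Muc2 (0.813) and Mptx1 (0.804). Over the 19 later runs alone r was 0.741, 0.631, 0.558, 0.295 and 0.0739 for the same genes. Each value was thus lower without the lane-start tissue, and the likeness of Muc2 and Mptx1 rested largely on it. The runs share a library and the widespread transcripts described above, and these values are descriptions.

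One run on lane 1 had Mptx1 and Muc2 at still higher levels and Actg2 at a lower one. This largest run of that lane, with 4427 hexagons and 779356 UMIs, had Mptx1 at 62112 CPM, Muc2 at 5018 CPM, Actg2 at 911 CPM and Mgp at 312 CPM, set beside 36320.4, 3417, 1562 and 3929 CPM in the lane-start tissue, and 13.9% of its whole-gene UMIs were not exonic.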

How the data were processed

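Seq-Scope libraries of mouse aorta sections were sequenced by the authors, who aligned reads to mm10 with STARsolo 2.7.5c and deposited raw UMI counts per gene and array position, 1 field for exonic and 1 for whole-gene reads, without normalization. Normal and aneurysmal sections share 1 matrix of 32285 genes and 9837644 barcodes, of which 763 had no position. Here 12 μm hexagons with 75 or more genes were kept and 8551 mitochondrial and Gm genes were removed, which follows the methods of the study. The scale of 26.6 units per μm and the joining of tiles along each lane were set here. The 36030 hexagons kept are fewer than the study states, and the cause was not tested. Counts were summed with Python 3.11.15, numpy 2.4.6, scipy 1.17.1 and pandas 2.3.3. Clusters used scanpy 1.11.5 (20 components, 15 neighbours, Leiden resolution 0.5). No doublet caller was run. Intervals are exact Poisson or Clopper-Pearson at 95%, cover counting error only, and are too narrow for biological spread. Named genes were the 30 with the most UMIs, the 15 with the largest ratio each way, the 4 members of each list with the most UMIs and its members at 0, the sex and genotype genes, and the 5 genes most alike to Actg2, and other genes given with values belong to the lists. Members and lists were chosen with earlier results of these data known, and 7 lists were added to the 48 after their values were seen, of which 1 is not reported here in full. Promoters are from RefSeq GRCm38.p6. Alternatives were whole-gene counts, other gene, gap and UMI minimums, a shifted grid, other priors, the median over later runs, parts of the tissue, off-tissue hexagons as reference, and the crypt and surface list without Mptx1.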

Additional observations from a re-analysis of the deposited data

How the results depend on the processing

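Of 7196 genes, 352 were higher (4.89%) and 812 lower (11.3%) past the fold. There were 977 (7.13%) and 1502 (10.96%) of 13705 with whole-gene UMIs, 618 (5.44%) and 1844 (16.2%) of 11360 with a minimum of 20 UMIs, and 1608 (7.84%) and 5076 (24.7%) of 20516 with no minimum. There were 210 (6.36%) and 234 (7.09%) of 3301 against off-tissue hexagons, where fewer genes could be tested, and 766 (12.7%) and 1042 (17.3%) of 6011 beyond the midpoint of the tissue (1242 μm). Whole-gene UMIs moved the median of all genes up by 0.32 (log2), and the part beyond the midpoint by 0.27. Shares of UMIs for goblet cell, contractile and visceral smooth muscle genes were 1.08%, 1.87% and 0.300% with whole-gene UMIs, 1.53%, 2.91% and 0.425% at 50 genes per hexagon, and 1.66%, 2.53% and 0.364% at 100 genes. They were 1.43%, 3.07% and 0.440% over all barcodes in range, 1.68%, 2.52% and 0.370% before the midpoint, 0.504%, 4.79% and 0.670% beyond it, and 1.74%, 2.30% and 0.328% in the first 800 μm.

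Of 80 named genes past the fold, 80 kept their direction under each of the settings other than the part beyond the midpoint (67) and the off-tissue reference (77), and 49 were also past the fold with whole-gene UMIs. Beyond the midpoint the log2 ratio was −0.13 for Ang4, −0.90 for Aqp4, −1.32 for Krt7, 0.058 for Ccn1, 0.24 for Vmn2r69, 0.32 for Col10a1 and Esr1, 0.35 for Itga11, 0.36 for Arxes2, 0.034 for Etv1, 0.024 for Ucp1, 0.025 for Cidea, and 0.16 for Cfd. Against off-tissue hexagons it was −0.32 for Cela1, −0.51 for Clps and 0.32 for Pdpn. The cause was not tested. The first 800 μm, the off-tissue reference and the list without Mptx1 were chosen after seeing the data.

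The number of member hexagons was 3970 at 50 genes, 2246 at 100 genes and 2832 on the shifted grid. No paired analysis was possible because the result comes from no test. One piece of tissue without replicates limits every value. At its depth a count of 0, with 3 UMIs taken as the limit behind it, allows a level of up to 6.24 CPM.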
